A study of Saccharomyces cerevisiae with 6 samples.

Results

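The cell wall integrity module of budding yeast was examined here as 43 genes chosen by name, as signalling components, glucan and chitin enzymes and wall proteins. All 43 were measured, each by a single probe set, out of 5449 genes measured in all. In the arrays labelled ypr045c∆, 13 of the 43 were lower and 3 were higher than in the arrays labelled wild type, and 27 did not pass the test. By the same rule 10.2% of all genes were lower and 11.6% higher, and outside chromosome X it was 5.05% and 12.3%. The 2 largest falls among them were those of KDX1 and BAG7, both known targets of the pathway's transcription factor Rlm1. The module was listed as having no gene on chromosome X, but the gene table places BCK1 there, so results are also given without it.

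The study set 3 arrays of BY4741 carrying a deletion of YPR045C (THP3) beside 3 arrays of wild-type BY4741. BY4741 is a haploid laboratory strain of mating type a that lacks functional HIS3, LEU2, MET17 and URA3, which both groups therefore share. Cells were in exponential growth in YPD, a rich glucose medium, and cRNA with a biotin label was hybridised to Affymetrix arrays that also carry fission yeast probe sets. The labels do not say whether arrays of 1 group came from separate cultures or from 1 clone, so p-values measure only the spread between these arrays.

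The wall of Saccharomyces cerevisiae is a mesh of glucan and chitin covered by mannoproteins. Sensors in the plasma membrane report wall stress to the GTPase Rho1, which activates protein kinase C and, through it, a cascade of MAP kinases ending in Slt2. Slt2 phosphorylates the transcription factor Rlm1, and Rlm1 raises a set of genes for wall proteins, wall enzymes and regulators of the pathway itself. In growing cells the pathway also follows bud growth through the cell cycle.

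Deposited intensities are linear, and one value stands for each probe set on each array. Differences are on the scale of log2(quantile-normalised intensity + 16), as the arrays labelled deletion minus those labelled wild type, with their standard error (SE). A gene was called when the adjusted p of limma, Benjamini-Hochberg over all 5449 genes, lay under 0.05. On that rule 21.7% of all genes were called, 11.6% higher and 10.2% lower. Outside chromosome X it was 17.3% of 5133 genes, 12.3% higher and 5.05% lower. Chromosome X stood apart as a whole, with 295 of its 316 genes lower, 0 higher and a median difference of -0.79. The targeted gene did not bear out the labels. THP3 gave 950.0, 894 and 529 on the arrays labelled deletion, against 733, 678 and 463 on those labelled wild type (log2 difference 0.33 ± 0.25, SE; adjusted p = 0.39, and between 0.015 and 0.73 over the alternatives), and it is unknown here whether its probes lie in the deleted part. Groups are therefore named by their labels. The 7 a-cell markers, such as the receptor gene STE2, had a median per array of 12.48 to 12.53 on the log2 scale in the arrays labelled deletion and of 12.48 to 12.51 in those labelled wild type. The 4 alpha-cell markers had a median of 7.27 to 7.38 in the arrays labelled deletion and of 6.70 to 7.14 in those labelled wild type, near the background limit of 6.48, the 95th percentile of the fission yeast probe sets; SAG1, on chromosome X, stood above the rest at 9.16 and 10.39. Of the genes not functional in BY4741, URA3 and MET17 lay below that limit in both groups. LEU2 was above it at 8.52 and 8.79, and HIS3 at 11.60 and 11.55. Whether the probes of these genes lie in deleted parts is unknown here. None of the 43 members lay below the limit in either group, and none had a missing value. At the upper end the brightest probe set of each array read 29593 to 30332. Some members, such as CCW12, GAS1 and SED1, were bright on that scale. Whether bright probe sets show differences in full was not tested.

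Of the 43 members, 37.2% were called, beside 21.7% of all genes. Among the 42 without BCK1 it was 35.7%, beside 17.3% of all genes outside chromosome X. The share called lower was 30.2% of the 43, beside 10.2% of all genes. For the 42 it was 28.6%, beside the 5.05% of all genes outside chromosome X. The share called higher was 6.98%, beside 11.6% of all genes. The groups did not overlap for 23 members, 5 higher and 18 lower. Of all genes 41.2% did not overlap, 25.1% higher and 16.2% lower, and outside chromosome X it was 37.9%. The median difference over the members was -0.01, against 0.03 over all genes. The module was listed with earlier results of these data known, so these shares describe it and are not a test of it. With the values as deposited 0 members were higher and 11 lower, and with median centring 1 was higher and 16 lower. Without the array labelled deletion 1 it was 2 and 6, and without the array labelled deletion 2 it was 0 and 7.

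**Figure D1:**
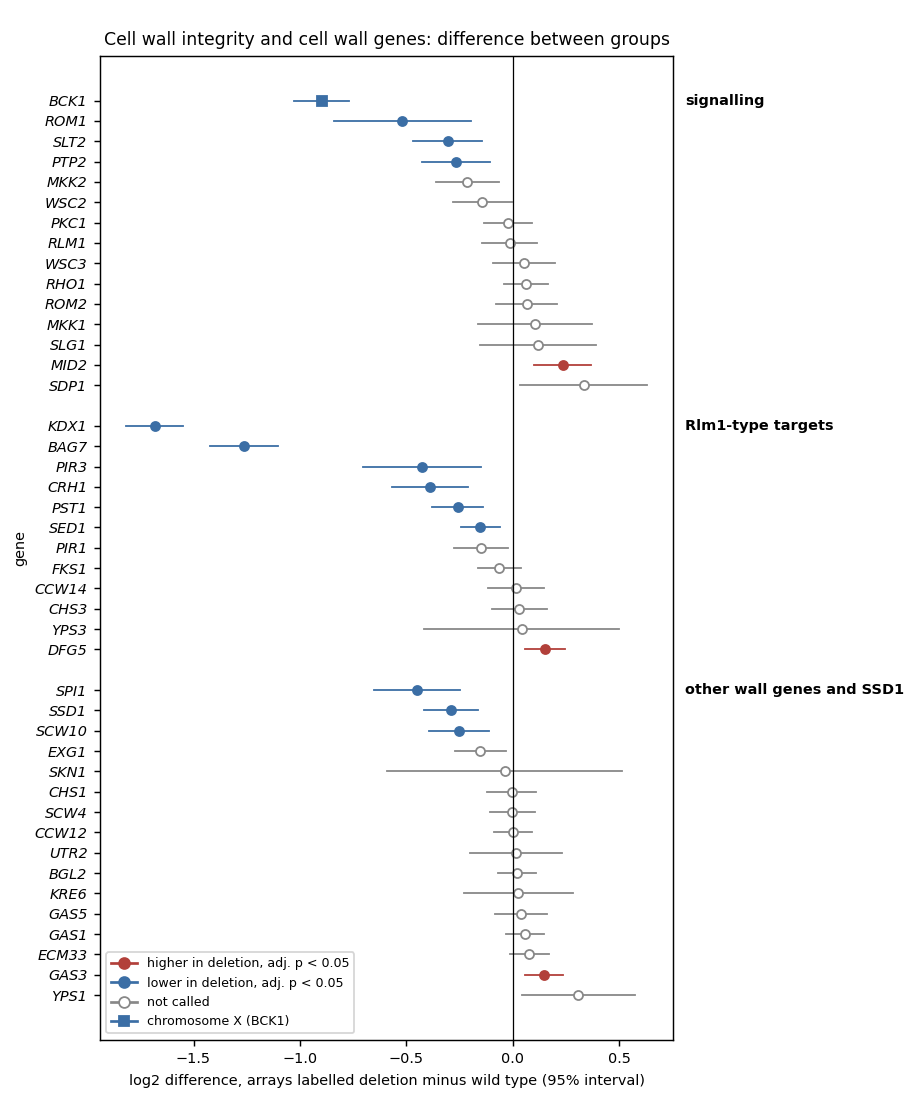
Log2 difference between the arrays labelled deletion and those labelled wild type for each of the 43 genes, with 95% intervals (3 arrays per group), in 3 blocks: signalling genes, Rlm1-type targets, and other wall genes with SSD1. KDX1 and BAG7 lie farthest to the left, at -1.68 and -1.26, BCK1 on chromosome X is drawn as a square, and most other genes lie within 0.5 of 0.

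The Rlm1-type targets are a chosen list of genes known to depend on Rlm1 or to be raised by activation of the pathway. The list does not hold every such gene. Genes raised by the pathway or by wall stress also stand in other lists, among them PTP2, which fell, and GSC2, which rose. Of the 12 on the list 6 fell, 1 rose and 5 did not pass the test, and 58.3% were thus called. Outside chromosome X, where all 12 lie, 17.3% of all genes were called, 12.3% higher and 5.05% lower. Their median difference was -0.15. Relative to the median of all genes it was -0.19, and over the alternatives it stayed between -0.20 and -0.17. Without the array labelled deletion 1 the number of targets that fell was 3. KDX1 and BAG7 carried most of the size, and the other 10 differed by at most 0.43 in either direction.

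KDX1 (YKL161C, chromosome XI) encodes a protein kinase closely related to Slt2 and is one of the genes whose expression depends most clearly on Rlm1. Its deposited intensity was 199.7, 235 and 212 on the arrays labelled deletion, against 761, 724 and 668 on those labelled wild type. Every array labelled deletion lay far below every array labelled wild type, and within the groups the arrays were close. KDX1 fell 3.21-fold (log2 difference -1.68 ± 0.06, SE; adjusted p = 1.65e-05), the largest fall of any gene outside chromosome X. BAG7 (YOR134W, chromosome XV) encodes a GTPase-activating protein that turns Rho1 off. It read 143, 185 and 159 on the arrays labelled deletion, against 385, 386 and 411 on those labelled wild type. The groups were again far apart, and BAG7 fell 2.40-fold (log2 difference -1.26 ± 0.07, SE; adjusted p = 3.95e-05), the fifth largest fall outside chromosome X. At least 2-fold falls were called for 1.06% of all genes and for 0.253%, or 13 genes, outside chromosome X, and KDX1 and BAG7 were 2 of those 13. At least 2-fold rises were called for 0.367% of all genes and for 0 members. Both calls held in all 18 alternatives, with differences between -1.76 and -1.50 for KDX1 and between -1.34 and -1.07 for BAG7.

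A second tier of targets fell by less. CRH1 (YGR189C) encodes an enzyme that joins chitin to glucan, and it read 5729, 6140.1 and 6940.2 on the arrays labelled deletion, against 8510.5, 7871 and 8766 on those labelled wild type. Its groups did not overlap, and it fell 1.31-fold (log2 difference -0.39 ± 0.07, SE; adjusted p = 0.011), a call that held in all 18 alternatives. PST1 (YDR055W), a surface protein anchored by glycosylphosphatidylinositol (GPI) and known to be raised by wall damage, read 5371, 5756 and 5509 on the arrays labelled deletion, against 6806, 6332 and 6902 on those labelled wild type. It fell 1.20-fold (log2 difference -0.26 ± 0.05, SE; adjusted p = 0.012), but was not called without the array labelled deletion 1 (adjusted p = 0.051) or without both arrays numbered 3 (adjusted p = 0.080). SED1 (YDR077W), an abundant GPI protein of the wall, was bright on every array. It read 17114, 17269 and 17515 on the arrays labelled deletion, against 19549.6, 18898 and 18842 on those labelled wild type, without overlap (log2 difference -0.15 ± 0.04, SE; adjusted p = 0.031). Its call was lost when any 1 of the 6 arrays was left out (adjusted p between 0.050 and 0.11).

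PIR1 (YKL164C) and PIR3 (YKL163W) encode wall proteins of the PIR family, which are bound directly to glucan, and they lie next to each other on chromosome XI. PIR3 was dim, at 236, 276 and 307 on the arrays labelled deletion, against 414, 333 and 323 on those labelled wild type. The groups did not overlap, and PIR3 fell 1.35-fold (log2 difference -0.43 ± 0.12, SE; adjusted p = 0.042). The call held in only 1 of the 6 fits that leave out an array, that without the array labelled deletion 3, and the adjusted p in the others was between 0.076 and 0.11. PIR1 was bright, at 13084, 13314 and 12193 on the arrays labelled deletion, against 15188, 13879.8 and 14419.8 on those labelled wild type. It did not overlap between groups but was not called (log2 difference -0.15 ± 0.05, SE; adjusted p = 0.092). DFG5 (YMR238W), a GPI-anchored enzyme homologue needed for wall growth, went the other way with 4986, 5162 and 4976 on the arrays labelled deletion, against 4691, 4467 and 4565 on those labelled wild type. It rose 1.11-fold (log2 difference 0.15 ± 0.04, SE; adjusted p = 0.038), and this call was lost when any 1 array was left out (adjusted p between 0.056 and 0.14) and with median centring (adjusted p = 0.78).

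The remaining targets were not called. FKS1 (YLR342W), the main catalytic subunit of glucan synthase, read 14757, 15041 and 15741 (labelled deletion) against 16580.0, 15629 and 15776 (labelled wild type), a difference of -0.06 ± 0.04 (adjusted p = 0.33). CHS3, the synthase that makes most of the wall's chitin, had a 95% interval for its difference of -0.10 to 0.16, and for CCW14, a GPI protein of the inner wall, the interval was -0.12 to 0.15. YPS3 (YLR121C), a yapsin protease of the cell surface, was the most variable target, at 1153, 1248 and 1565 (labelled deletion) against 1577, 984 and 1445 (labelled wild type), so that its interval was -0.42 to 0.50. The spread between its arrays was larger than any difference between the groups.

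**Figure D2:**
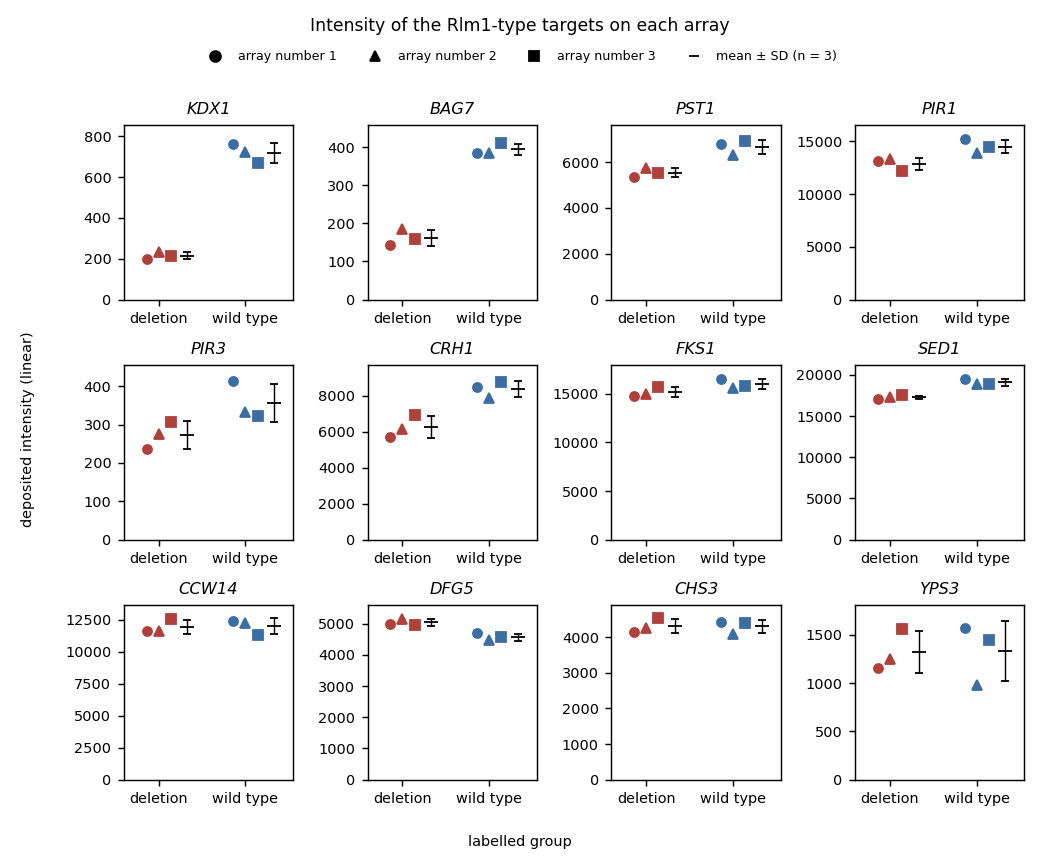
Deposited intensity of the 12 Rlm1-type targets on each of the 6 arrays, with the arrays labelled deletion left of those labelled wild type; symbols mark the array number and bars the mean ± SD (n = 3). For KDX1 and BAG7 the groups stand far apart, for CRH1, PST1 and SED1 they are separate by a smaller step, and for CCW14, CHS3 and YPS3 they overlap.

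KDX1, PIR3 and PIR1 form a short run on chromosome XI, with YKL162C between KDX1 and PIR3. YKL162C fell by 0.24 on the log2 scale (adjusted p = 0.046). On the far side of KDX1, ELF1 differed by 0.17 and was not called, and RCN1, next after it, rose by 0.42 (adjusted p = 0.0022). On the far side of PIR1, MCD4 rose by 0.21 (adjusted p = 0.037). Among the 13 measured genes around this run, only KDX1, YKL162C and PIR3 were called lower. The neighbours of BAG7 were IDH2, which fell by 0.22, and VPS17, which differed by -0.04 and was not called; EFT1, which lies between VPS17 and BAG7, was not analysed here. These neighbours were looked at after the values of the members were known.

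Of the 15 signalling genes 33.3% were called: 4 fell and 1 rose, and 10 failed the test. Without BCK1 it was 3 falls and 1 rise among 14, or 28.6%. Beside these stand 21.7% of all genes and 17.3% of those outside chromosome X. Their median difference was -0.02 with BCK1 and 0.02 without it, against 0.03 for all genes. The signalling genes thus lay closer to the median of all genes than the targets did in each of the 18 alternatives, in which their relative median was between -0.07 and -0.02. Without the array labelled deletion 1 or 2 the only fall called was that of BCK1. No signalling gene changed as much as 2-fold, and the difference between the lists was not tested. Several genes of the cascade are themselves known to be raised by it. With SLT2, PTP2 and SDP1, and also YPS1 and SPI1 from outside the cascade, counted as targets, 9 of 17 targets fell and 1 rose (median -0.15). This regrouping was chosen with earlier results of these data known. SPI1, which fell, is also a general stress gene, and GSC2, which rose, was not added. Of the 11 signalling genes left without SLT2, PTP2, SDP1 and BCK1, 1 fell and 1 rose (median 0.05).

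The sensors span the plasma membrane and feel stretch of the wall. SLG1 (Wsc1), the best known of them, read 2081, 2044 and 1711 (labelled deletion) against 2164, 1833 and 1595 (labelled wild type), and the groups overlapped (log2 difference 0.12 ± 0.11, SE; adjusted p = 0.51). MID2, a sensor of another family, read 3407, 3428 and 3847 (labelled deletion) against 3221, 3002 and 3109 (labelled wild type). It was the only signalling gene called higher, by 1.18-fold (log2 difference 0.23 ± 0.06, SE; adjusted p = 0.026). That call was lost with the values as deposited (adjusted p = 0.074), with median centring (adjusted p = 0.54), without both arrays numbered 3 (adjusted p = 0.0685), and without the array labelled deletion 2 (adjusted p = 0.053) or any 1 of those labelled wild type (adjusted p between 0.060 and 0.079). WSC2 stood at 3628, 3779 and 4033 (labelled deletion) against 4225, 4147 and 4525 (labelled wild type), without overlap, and was not called (log2 difference -0.14 ± 0.06, SE; adjusted p = 0.13). WSC3 differed by 0.05, less than its spread.

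Rom1 and Rom2 are the exchange factors that load Rho1 with GTP. ROM1 read 312, 347 and 264 (labelled deletion) against 392, 533 and 380.2 (labelled wild type), and it fell 1.43-fold (log2 difference -0.52 ± 0.13, SE; adjusted p = 0.036). The call was lost without any 1 of the arrays labelled deletion (adjusted p between 0.059 and 0.099), without the array labelled wild type 3 (adjusted p = 0.052), without both arrays numbered 3 (adjusted p = 0.12), and with the values as deposited (adjusted p = 0.072). ROM2, which is known to carry more of the activity, read 1921, 1770.2 and 1761 (labelled deletion) against 1832, 1905 and 1674 (labelled wild type), with overlap (adjusted p = 0.49). RHO1, which also serves as the regulatory subunit of glucan synthase, differed by 0.06 ± 0.04, and PKC1, the kinase it activates, by -0.02 ± 0.05. Neither was called, and the 95% intervals were -0.04 to 0.16 for RHO1 and -0.13 to 0.09 for PKC1.

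In the MAP kinase cascade, BCK1 (YJL095W, chromosome X), the first kinase, read 1237, 1208 and 1332 on the arrays labelled deletion, against 2459, 2422 and 2441 on those labelled wild type. It fell 1.86-fold (log2 difference -0.90 ± 0.05, SE; adjusted p = 5.34e-05), close to the median of -0.79 of the 316 chromosome X genes, so its difference cannot be told apart from that of its chromosome. MKK1 and MKK2, the paired kinases below Bck1, were not called. MKK1 overlapped between groups (difference 0.10 ± 0.11), whereas MKK2 read 488, 472 and 465 (labelled deletion) against 595, 578 and 501 (labelled wild type) and narrowly missed the threshold (log2 difference -0.21 ± 0.06, SE; adjusted p = 0.051). In 7 of the 18 alternatives MKK2 was called lower, with adjusted p from 0.013. SLT2 (YHR030C), the MAP kinase, read 3548, 3739 and 3973 on the arrays labelled deletion, against 4765, 4374 and 5033 on those labelled wild type. It fell 1.24-fold (log2 difference -0.31 ± 0.07, SE; adjusted p = 0.019), and the call was lost without the array labelled deletion 1 (adjusted p = 0.071) or 2 (adjusted p = 0.062).

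RLM1 itself, whose activity is set by phosphorylation, did not differ beyond its spread. It read 2871, 2911 and 3098 on the arrays labelled deletion, against 3279, 2888 and 3102 on those labelled wild type (difference -0.02 ± 0.05, 95% interval -0.14 to 0.11). The phosphatases that act on Slt2 gave opposite signs. PTP2, which also acts on the osmotic stress kinase Hog1 and is known to be raised by the pathway, read 1228, 1316 and 1433 (labelled deletion) against 1693, 1683 and 1555 (labelled wild type) and fell 1.20-fold (log2 difference -0.27 ± 0.07, SE; adjusted p = 0.031). Its call held in 1 of the 6 fits that leave out an array, that without the array labelled deletion 3, and the adjusted p of the others was between 0.051 and 0.096. SDP1, a stress-induced phosphatase specific for Slt2, read 317, 403 and 403 (labelled deletion) against 247, 306 and 288 (labelled wild type). Its groups overlapped and it was not called (log2 difference 0.33 ± 0.13, SE; adjusted p = 0.11), though 3 alternatives called it higher.

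**Figure D3:**
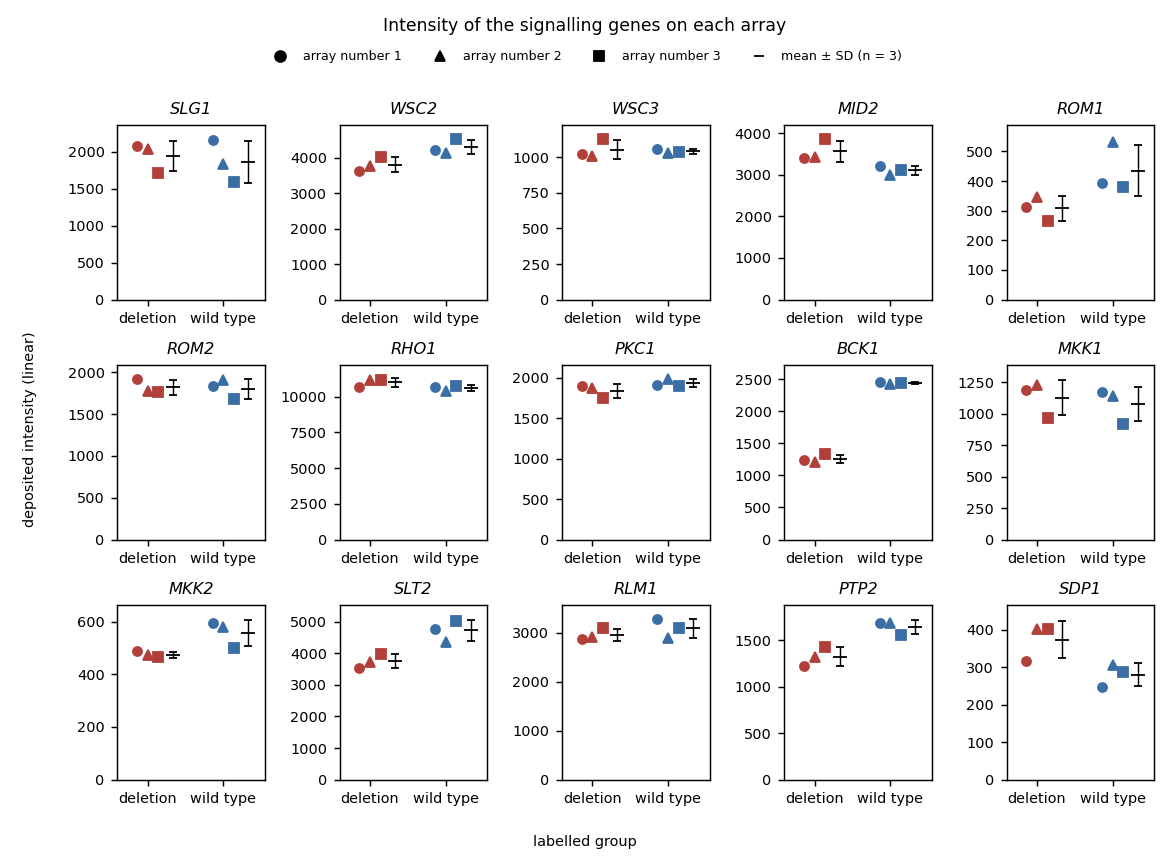
Deposited intensity of the 15 signalling genes on each array, with the arrays labelled deletion left of those labelled wild type; symbols mark the array number and bars the mean ± SD (n = 3). BCK1 shows the widest gap between groups, SLT2, PTP2 and ROM1 are lower and MID2 higher in the arrays labelled deletion, and SLG1 and MKK1 are lowest on the arrays numbered 3 of both groups.

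Of the 10 further genes of glucan remodelling and assembly 1 fell, 1 rose and 8 did not pass the test. That is 20.0% called, near the 21.7% of all genes and the 17.3% of those outside chromosome X, and their median was 0.02. SCW10 (YMR305C), a glucanase-like wall protein, read 8890.4, 8883 and 10011 on the arrays labelled deletion, against 11108, 10757 and 11719 on those labelled wild type, and it fell 1.19-fold (log2 difference -0.25 ± 0.06, SE; adjusted p = 0.025). The call held without the array labelled deletion 3 and was lost when any other single array was left out (adjusted p between 0.051 and 0.087). GAS3, a relative of the glucan transferase Gas1, read 6074, 6119.8 and 6106 (labelled deletion) against 5729.7, 5547 and 5384 (labelled wild type) and rose 1.11-fold (log2 difference 0.15 ± 0.04, SE; adjusted p = 0.035). That call was lost when any 1 array was left out (adjusted p between 0.065 and 0.12) and with median centring (adjusted p = 0.80).

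The major enzymes of glucan remodelling were bright and showed no call, and whether bright probe sets show differences in full was not tested. GAS1 differed by 0.06 ± 0.04, GAS5 by 0.04 ± 0.05, the wall glucanase BGL2 by 0.02 ± 0.04 and SCW4 by -0.00 ± 0.04. EXG1, a secreted exoglucanase, read 11795, 11572 and 12474 (labelled deletion) against 14182, 12887 and 13569.9 (labelled wild type) without overlap and was not called (log2 difference -0.15 ± 0.05, SE; adjusted p = 0.072); it was called lower with median centring (adjusted p = 0.034) and with a trended, robust spread (adjusted p = 0.011). UTR2, the relative of CRH1, overlapped between groups at 9459, 9748 and 11239.6 (labelled deletion) against 11034, 8961 and 10565 (labelled wild type). KRE6 and SKN1, a related pair that act in making one of the glucans, differed by 0.03 and -0.04, with wide intervals of -0.23 to 0.28 and -0.59 to 0.51. CHS1, the chitin synthase of wall repair, differed by -0.01 ± 0.05.

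Of the wall proteins outside the target list, SPI1 (YER150W), a GPI protein known to rise in stress and slow growth, read 3743, 4189.9 and 3639 on the arrays labelled deletion, against 5864, 5518 and 4745 on those labelled wild type. It fell 1.37-fold (log2 difference -0.45 ± 0.08, SE; adjusted p = 0.0099), without overlap and in all 18 alternatives. CCW12, a major mannoprotein of the growing wall, had the brightest probe set of the module. It read 25614, 25243 and 26110.2 (labelled deletion) against 26239.8, 25793 and 25661 (labelled wild type), and its 95% interval was -0.09 to 0.09. How far a probe set this bright can show a difference was not tested. ECM33 did not overlap between groups at 17663, 17595 and 17423 (labelled deletion) against 16508, 16536 and 16673 (labelled wild type) but was not called (log2 difference 0.08 ± 0.04, SE; adjusted p = 0.21). YPS1, the yapsin that is neighbour to YPS3 on chromosome XII, differed by 0.31 ± 0.11 with overlap (adjusted p = 0.097). SSD1 (YDR293C), an RNA-binding protein that holds back translation of wall protein mRNAs, read 3403, 3449 and 3738 on the arrays labelled deletion, against 4527, 4189 and 4547 on those labelled wild type. It fell 1.22-fold (log2 difference -0.29 ± 0.05, SE; adjusted p = 0.009), also in all 18 alternatives.

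Of the 16 calls, 6 therefore held in every alternative run for them: KDX1, BAG7, CRH1, SPI1, SSD1 and BCK1, all lower. BCK1 has no value in the fit without chromosome X genes and thus 17 alternatives. The other 10 calls kept their direction throughout but were lost in 2 to 11 of 18 alternatives. None of the 3 rises, MID2, DFG5 and GAS3, was among the 6.

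As a description, 10 chosen pairs of related genes were compared by the log2 ratio of the pair on each array, with an exact two-sided permutation test, for which 3 against 3 arrays allow no p under 0.1. KDX1 over its relative SLT2 was lower by 1.38 on the log2 scale in the arrays labelled deletion (exact p = 0.1; 0.17 after adjustment over the 10 pairs). The ratio was also lower without overlap for ROM1 over ROM2 (-0.58), CRH1 over UTR2 (-0.41), MKK2 over MKK1 (-0.32), SCW10 over SCW4 (-0.25) and WSC2 over WSC3 (-0.20), each with the same p. For PIR3 over PIR1, SKN1 over KRE6, YPS1 over YPS3 and GAS3 over GAS5 the groups overlapped (exact p between 0.2 and 0.8). In this design no pair could pass 0.05, so the ratios are given as values only.

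The arrays numbered 3 stood apart for some members. Deviations from the group means correlated across all genes at r = 0.61 between the 2 arrays numbered 3, at -0.15 for number 1 and at -0.03 for number 2. Over the 43 members r was positive for each number, at 0.77 for number 3, 0.30 for number 1 and 0.49 for number 2. These correlations run across genes, which are not independent replicates. Among the members SKN1 was the clearest case. It read 1675, 1608 and 1001 on the arrays labelled deletion, against 1831, 1553 and 1139 on those labelled wild type, so both arrays numbered 3 were the lowest of their group. Its level there was lower by 0.69 among the arrays labelled deletion and by 0.52 among those labelled wild type than on the other arrays. MKK1 and SLG1 were lower on both arrays numbered 3 by 0.25 to 0.29, ROM1 by 0.20 to 0.21, and YPS3 was higher by 0.42 and 0.23. These 5 genes shifted by over 0.2 in the same way in both groups. For KDX1 the shift was 0.07 in the arrays labelled deletion and -0.11 in those labelled wild type, and for BAG7 it was 0.07 and 0.13, small beside the differences of -1.68 and -1.26 between groups. What sets the arrays numbered 3 apart is not given in the labels.

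**Figure D4:**
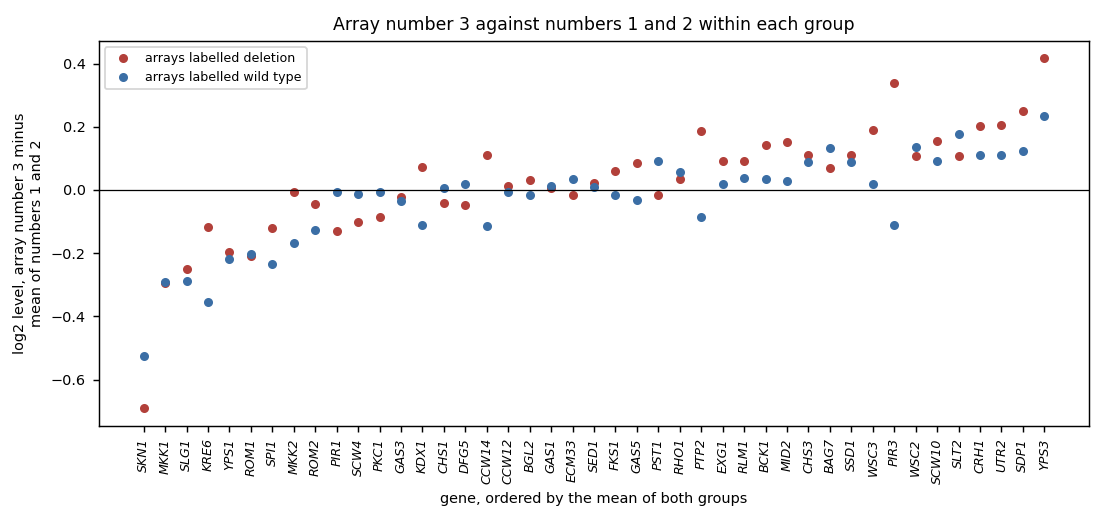
For each of the 43 genes, the log2 level on array number 3 minus the mean of numbers 1 and 2, separately for the arrays labelled deletion and those labelled wild type (1 array against 2 in each group). SKN1 lies lowest in both groups, at -0.69 and -0.52, YPS3 highest, at 0.42 and 0.23, and most genes lie within 0.2 of 0.

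Other genes of the pathway and wall, 65 measured beside the members, were read from a list written from general knowledge. That list, too, was chosen with earlier results of these data known, so its counts describe these genes and are not an independent check of the members. Outside chromosome X, 12 of 60 rose, 7 fell and 41 did not pass the test, or 20.0% higher and 11.7% lower. Among all genes outside chromosome X it was 12.3% higher and 5.05% lower. The 5 on chromosome X, HSP150, CIS3, PIR5, KRE9 and CHS6, all fell. Of 13 further signalling genes, among them the sensor MTL1, the exchange factor TUS1 and the Rho1 inhibitors SAC7 and LRG1, 0 were called by limma (2 at an unadjusted p under 0.05, RDI1 and MTL1). The widest difference there was that of SWI4, whose product partners Slt2 in cell cycle transcription, at -0.70 ± 0.46 with overlapping groups. SWI4 read 627, 682 and 231 (labelled deletion) against 1001, 1017 and 453 (labelled wild type). Both arrays numbered 3 were thus far the lowest of their group.

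Of 7 further Rlm1-type targets 5 fell and 1 rose, and 3 of the falls were outside chromosome X. GSC2, which is raised by wall stress and rose 1.54-fold, was listed with the glucan genes and is not counted here. Among all genes 10.2% were called lower and 11.6% higher, and outside chromosome X 5.05% were called lower. CWP1 (YKL096W), a mannoprotein of the wall, read 6396, 6683 and 6782 on the arrays labelled deletion, against 13810.1, 13876 and 12851 on those labelled wild type. It fell 1.99-fold (log2 difference -0.995 ± 0.05, SE; adjusted p = 3.80e-05). SRL3 fell 1.60-fold (log2 difference -0.68 ± 0.06, SE; adjusted p = 2.51e-04) and GFA1, the entry enzyme of chitin precursor synthesis, fell 1.19-fold (log2 difference -0.25 ± 0.04, SE; adjusted p = 0.0062). PUN1 rose by 0.16, and PRM5 differed by -0.06 ± 0.07 and was not called. The PIR family members on chromosome X, HSP150 and CIS3, fell by 0.35 and 0.22, less than the chromosome's median of 0.79 in size, and PIR5 fell by 0.53. HSP150 and CIS3 were bright, at 13.81 and 13.89 on the log2 scale in the arrays labelled deletion. Sequence relatives of PIR1 and PIR3 thus lie on a chromosome whose genes fell, and whether the probes of 1 family member read another was not tested.

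Of 20 further glucan genes outside chromosome X 7 rose and 1 fell, beside 12.3% higher and 5.05% lower among all genes outside that chromosome. GSC2 (FKS2), the second glucan synthase subunit, which is raised by wall stress and by calcineurin, read 1999, 1971 and 2263 on the arrays labelled deletion, against 1552, 1268 and 1356 on those labelled wild type. It rose 1.54-fold (log2 difference 0.62 ± 0.08, SE; adjusted p = 0.0024), while FKS1 was not called. KRE5 rose 1.34-fold (log2 difference 0.42 ± 0.05, SE; adjusted p = 9.89e-04). Further rises were those of CRR1, KNH1, CWH41, SUN4 and EXG2, between 0.16 and 0.44, and GAS2 fell by 0.56. Of 10 chitin genes outside chromosome X 0 were called by limma (1 at an unadjusted p under 0.05, SKT5).

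Of 12 further wall proteins outside chromosome X 4 rose and 3 fell, beside the same 12.3% higher and 5.05% lower. HPF1, a mannoprotein that lowers protein haze in wine, fell 2.32-fold (log2 difference -1.21 ± 0.07, SE; adjusted p = 3.95e-05), with 2884, 2879.6 and 2901 (labelled deletion) against 6620.3, 7515 and 6518 (labelled wild type). TOS6 fell 1.57-fold (log2 difference -0.66 ± 0.07, SE; adjusted p = 7.39e-04) and the yapsin gene YPS6 1.49-fold (log2 difference -0.57 ± 0.06, SE; adjusted p = 7.37e-04). PLB2, a surface phospholipase, rose 1.76-fold (log2 difference 0.81 ± 0.05, SE; adjusted p = 7.31e-05), with 4227, 4113 and 4168 (labelled deletion) against 2561, 2492 and 2219 (labelled wild type). The rises of MKC7, PLB1 and TIP1 were between 0.24 and 0.27. The calls of CWP1, SRL3, HPF1, TOS6, YPS6, PLB2, KRE5 and GSC2 held in all 18 alternatives.

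General stress genes were read alongside, because SPI1 belongs to them and targets of the wall pathway respond to several stresses. Of 24 such genes, SPI1 among them, 5 rose and 6 fell, or 45.8% called, with a median of -0.06. None lies on chromosome X, and among all genes outside it 17.3% were called. HSP12, a small heat-shock protein gene, fell 2.51-fold (log2 difference -1.33 ± 0.07, SE; adjusted p = 3.80e-05), and XBP1, a stress-induced repressor gene, fell by 1.24. DDR48 rose 1.88-fold (log2 difference 0.91 ± 0.05, SE; adjusted p = 3.80e-05) and HSP26 1.74-fold (log2 difference 0.80 ± 0.11, SE; adjusted p = 0.0029). The stress genes thus moved in both directions, and their part in the falls of the wall genes was not tested.

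**Figure D5:**
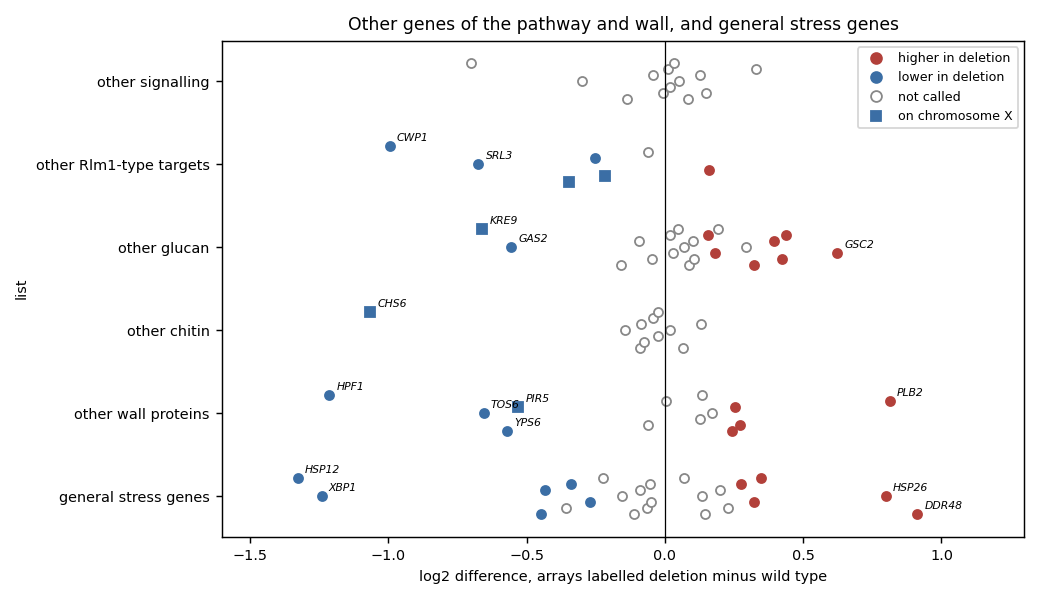
Log2 difference, arrays labelled deletion minus wild type, for 65 other genes of the pathway and wall in 5 lists and for 24 general stress genes, 1 point per gene (3 arrays per group); squares lie on chromosome X. The signalling list shows no call, CWP1, SRL3, HPF1, TOS6 and YPS6 lie to the left, and GSC2 and PLB2 to the right.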

How the data were processed

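The values the authors deposited are linear intensities, 1 for each probe set of each of the 6 arrays. The summarisation, background correction and scaling of the probes are not given in the sources used here. Per the labels' protocols the target was biotinylated cRNA. The table held 10928 probe sets with 30 missing values, array sums lay between 17790600 and 18431400, and log2 medians differed by up to 0.24, so arrays were quantile-normalised. Gene names came from the annotation of the platform, updated by gene identifier with the R64 table. Of several probe sets of a gene the one with the highest mean was kept, and 1746 fission yeast probe sets served as background. After adding 16 and taking log2, the 5449 genes went into 1 limma fit (version 3.58.1, R 4.3.3, lmFit then eBayes) with group as the only term.

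The members, the lists and the tests were chosen with earlier results of these data known. Every member is named; of the other pathway genes, the 8 of smallest p outside chromosome X and the PIR genes, of the stress genes the 4 of smallest p, and the rest after their values were seen. Data for this comparison (5449 genes) were simulated with independent noise, with 100 genes changed by 0.5 and 100 by 1. The fit recovered 88% of the former and 100% of the latter, and 5.05% of calls were false. Deviations shared between arrays and changes in many genes were not simulated. These shares thus check the fit and do not measure the error of the calls above. Over all genes, same-numbered arrays did not deviate together for numbers 1 and 2, so numbers were not taken as pairs, although over the 43 members r was positive for each number. Alternatives were the deposited values, median centring, quantile normalisation of S. cerevisiae probe sets alone, pseudocounts of 1 and 64, a filter on dim genes, a trended robust spread, averaged probe sets, an array-number block, leaving out chromosome X genes, leaving out or blocking the arrays numbered 3, and leaving out each array. Where genes or arrays were left out, the levels stayed as normalised with them. Leaving out chromosome X genes thus changed the spread model and the adjustment of p, but no difference. Sequences of promoters and proteins were not used here. The small number of arrays, 3 in a group, limits the precision.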

Additional observations from a re-analysis of the deposited data

How the results depend on the processing

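With median centring, which moved the median difference of all genes by -0.12, 258 genes were called higher and 858 lower, against 630 and 554. As deposited it was 479 and 635, and without both arrays numbered 3 it was 349 and 473. Without chromosome X genes it was 536 and 225, with the normalisation not redone. Members called higher, 3 in the fit reported, were 0 as deposited and 0 without both arrays numbered 3. With median centring 1 was called higher, SDP1 (adjusted p = 0.028), which is not among those 3. The signalling genes called higher, MID2 alone in the fit reported, numbered 0 as deposited, 1 with median centring (SDP1, not MID2) and 0 without both arrays numbered 3. The rise of 1 target, DFG5, became 0 as deposited, with median centring, without chromosome X genes and without both arrays numbered 3. Leaving out each array in turn gave 374 to 485 genes higher and 454 to 526 lower, 0 to 2 members higher and 6 to 11 lower, 0 to 2 signalling genes higher and 1 to 3 lower, and 0 to 0 targets higher and 3 to 5 lower. Members called lower were fewest without the array labelled deletion 1 (6) or 2 (7). A term for the arrays numbered 3 gave 876 genes higher and 697 lower, and 4 members higher and 15 lower. Among the signalling genes it was 1 higher and 6 lower, and among the targets 1 and 6. That fit also called WSC2 and MKK2 lower (adjusted p = 0.033 and 0.032) and YPS1 higher (adjusted p = 0.044). With the array number as a replicate block, 697 genes were higher and 600 lower, 2 members higher and 10 lower, 2 signalling genes higher and 3 lower, and 0 targets higher and 4 lower. The block ended the calls of PTP2, PIR3, SED1, DFG5 and GAS3 (adjusted p between 0.050 and 0.069) and called SDP1 higher (adjusted p = 0.0097). The labels do not say that the numbers pair the arrays. Deviations of arrays numbered 1, 2 and 3 correlated between the groups at r = -0.15, -0.03 and 0.61 over all genes, and at 0.30, 0.49 and 0.77 over the 43 members. No member's call reversed in any alternative. Of the 27 members not called, 7 were called in at least 1 alternative, among them MKK2 and SDP1. How the authors scaled the intensities is unknown, and the calls of MID2, DFG5 and GAS3 were lost both as deposited and with median centring.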
